A study of Mus musculus with 6 samples.

Results

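The genes described here are 36 members of the interferon response and of antigen presentation, out of 31053 genes in the mouse kidney cortex libraries. They were taken by name from a fixed list and found by symbol in the gene table of each library. The list was chosen with earlier results of these data known. Counts of members set beside all genes are therefore descriptions and not independent support. By role they comprise 8 transcription factors and poly(ADP-ribose) polymerase (PARP) genes, 2 coactivators of antigen presentation genes, 14 interferon-induced effectors, 8 genes of class I presentation and 4 of class II presentation.

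Interferons bind receptors on almost every cell type and act through receptor-bound kinases on transcription factors, among them STAT2 with IRF9, which then enter the nucleus. Such complexes bind the interferon-stimulated response element (ISRE) and the gamma-activated site (GAS) in front of target genes such as the IFIT, OAS, MX and GBP families. Class I molecules (H2-K1, H2-D1 with B2m) show peptides cut by the immunoproteasome (Psmb8, Psmb9) and carried into the endoplasmic reticulum by Tap1 and Tap2, with Nlrc5 as transcriptional coactivator. Class II molecules (H2-Aa, H2-Ab1, H2-Eb1, with the chaperone Cd74) depend on the coactivator Ciita. In kidney, dendritic cells, macrophages and B cells carry class II, and tubule cells can acquire it when inflamed.

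Single-nucleus RNA was measured in kidney cortex of 3 control and 3 knockout FVB/N libraries, and the series asks what follows in the cortex when podocytes lose Klf4. Controls were Klf4 fl/fl, and knockouts were Podocin-Cre Klf4 fl/fl, so both groups carry the floxed allele and the knockouts add a Cre driven from a podocyte promoter. No label names age, sex, litter or a batch, and nothing says that the libraries of a group come from different animals, so p-values measure only the spread between these libraries. Kidneys had been rinsed with HBSS by perfusion and kept in RNALater before nuclei were freed with detergent. Klf4 itself had 1, 0 and 0 unique molecular identifiers (UMIs) in control podocytes and 4, 0 and 1 in knockout podocytes, too few to test, so its level checks the labels little; the labels also do not say which exons are removed.

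The libraries numbered 1 stand apart. Total UMIs were 62016616 in control 1 and 52478581 in knockout 1, and between 8270961 and 12604832 in the other 4 libraries. The median mitochondrial share per barcode was 2.67% and 1.02% in those numbered 1 and 0.0870% to 0.163% in the others. Between 3741 and 18238 nuclei per library were kept, and between 5 and 132 barcodes were found in both libraries of a pair, at most 1.39% of the smaller library. Proximal tubule markers were found in other classes too, and the part of free RNA, doublets and mixed clusters in this was not tested. The summed level of 12 proximal tubule markers was 10953 to 15282 UMIs per 1000000 UMIs of the class (CPM) in immune nuclei and 5618 to 11442 CPM in endothelial nuclei, against 13634 to 21322 CPM in proximal tubule nuclei. Nuclei in clusters with mixed or weak markers, 9.42% to 24.6% of a library, entered the sums over all nuclei and no single class.

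The sequences below are shown because the letters bound by the interferon-activated factors can be read in them beside the measured levels. RefSeq promoters of GRCm38.p6 were at hand for 27 of the 36 members, and the 250 bases before each start were searched on both strands for the ISRE letters TTTC, any 2 bases, TTTC (on the opposite strand GAAA, any 2 bases, GAAA) and the GAS letters TTCNNNGAA, which can overlap each other. ISRE letters were in 11 of 27 members (40.7%) and in 2.98% of all 32851 promoters, or 3.46% of the 27025 genes they belong to. GAS letters were in 6 of 27 (22.2%), in 7.02% of all promoters and 8.13% of genes. Irf1, Gbp2, Gbp3 and Gbp7 are shown as members whose knockout libraries all lay above all control libraries over all nuclei, and B2m, Rsad2 and Stat2 as members whose groups overlapped. Each is written 5′ to 3′ on the strand of the gene, with the letters of 1 match in capitals; Gbp3 holds a second match, TTTCTATTTC, which overlaps the first. The Irf1 stretch lies at chr11:53769899-53769957 (plus strand), Gbp2 at chr3:142620579-142620638 (plus), Gbp3 at chr3:142559974-142560033 (plus) and Gbp7 at chr3:142530258-142530317 (plus). That of B2m lies at chr2:122147523-122147582 (plus), of Rsad2 at chr12:26456538-26456597 (minus) and of Stat2 at chr10:128270251-128270310 (plus).
Irf1, GAS: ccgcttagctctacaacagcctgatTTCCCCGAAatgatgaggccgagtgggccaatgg
Gbp2, ISRE: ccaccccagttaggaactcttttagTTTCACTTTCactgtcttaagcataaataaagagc
Gbp3, ISRE: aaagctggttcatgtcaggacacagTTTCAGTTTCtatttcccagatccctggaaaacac
Gbp7, ISRE: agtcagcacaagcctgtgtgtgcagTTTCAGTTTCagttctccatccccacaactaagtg
B2m, ISRE: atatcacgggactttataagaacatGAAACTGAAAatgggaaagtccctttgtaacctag
Rsad2, ISRE: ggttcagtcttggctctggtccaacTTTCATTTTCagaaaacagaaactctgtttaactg
Stat2, ISRE: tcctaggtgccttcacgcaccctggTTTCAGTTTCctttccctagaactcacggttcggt
The same letters stood in front of members on both sides of that line. A match is a description of these bases and says nothing of binding in these nuclei.

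Over all kept nuclei, the coactivator Nlrc5 showed the greatest separation: its level was 3.19-fold higher in the knockout libraries. Parp14 and Irf1 were about as far apart as each other, at 1.91-fold and 1.92-fold, and Tap2, 1 of the 2 subunits of the peptide transporter, was 1.49-fold higher. None of these passed the adjusted threshold in edgeR's quasi-likelihood test. The classical effectors Ifit1, Ifit3, Isg15, Oas1a, Oas2 and Mx1 were low, at or below 2.58 CPM in every library. The B2m, H2-K1 and H2-D1 transcripts, the class I molecule itself, overlapped between the groups.

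Of the 36 members, 34 had at least 1 UMI in every library, and Oas1a had none in knockout 2. Irf8, a factor of dendritic cells and macrophages, had 0 UMIs in all 6 libraries, immune nuclei included. A fault of annotation or counting is possible and was not tested, so this 0 is not read as absence of Irf8. Counts were enough to test 32 over all nuclei; Irf8, Isg15, Oas1a and Mx1 were not tested. At an adjusted p of 0.05, edgeR with Benjamini-Hochberg adjustment over all genes called 0 of the 32 and 0.192% of all 16130 genes tested. At an unadjusted p under 0.05 stood 8 of the 32, all 8 higher in the knockout, beside 9.89% of all genes, and DESeq2 called 3 of the 32 and 492 of the 16130 genes. The median log2 difference of the tested members was 0.57 against -0.03 over all genes, and 26 of 32 were above 0 against 46.7% of genes. Every knockout library lay above every control library for 13 of the 32 members and for 10.7% of all genes tested; the opposite order held for 0 members and 5.52% of genes.

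**Figure D1:**
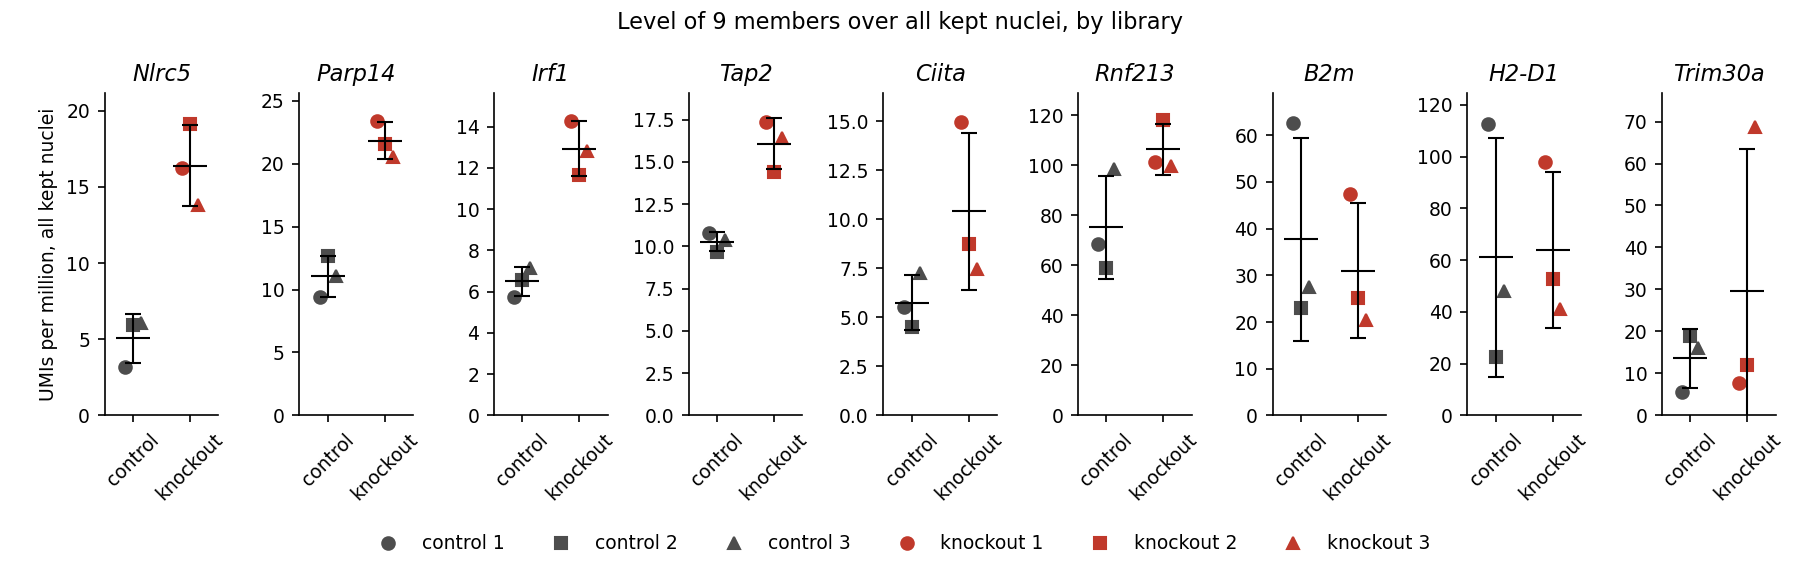
Level of 9 members over all kept nuclei, in CPM on linear axes that start at 0, with 1 point per library (circles, squares and triangles for libraries numbered 1, 2 and 3), a line at the group mean and bars of 1 SD (cut at 0 for Trim30a). Knockout points lie above all control points for Nlrc5, Parp14, Irf1, Tap2, Ciita and Rnf213, the libraries numbered 1 are highest for B2m and H2-D1, and knockout 3 alone is high for Trim30a.

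Nlrc5 (chr8:94434356-94527272, plus strand, in the GENCODE annotation of GRCm38) had 3.19, 5.94 and 6.04 CPM in controls 1 to 3 and 16.2, 19.1 and 13.8 CPM in knockouts 1 to 3. The lowest knockout library was above the highest control library by more than the range within either group. The log2 difference was 1.67 ± 0.29 (SE, n = 3 and 3; edgeR adjusted p = 0.0900). Nlrc5 was called where the replicate number entered as a block, which pairs libraries by number alone (log2 1.70, edgeR adjusted p = 0.0365). It was also called without both libraries numbered 1 (log2 1.46, edgeR adjusted p = 0.0237). With any 1 library left out it was not called (log2 1.45 to 1.83, edgeR adjusted p = 0.109 to 0.425). For these alternative fits the shares of all genes called are not given. Ciita (chr16:10480059-10528418, plus strand), the counterpart of Nlrc5 for class II genes, had 5.52, 4.52 and 7.24 CPM in controls and 15, 8.76 and 7.48 CPM in knockouts. Knockout 1 was the highest, and knockout 3 exceeded control 3 only narrowly (log2 0.80 ± 0.34, edgeR adjusted p = 0.507).

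Irf1 (chr11:53770014-53778374, plus strand), a factor induced by interferon gamma that itself drives Tap1, had 5.76, 6.58 and 7.16 CPM in controls and 14.3, 11.6 and 12.8 CPM in knockouts. The groups were well separated, with a log2 difference of 0.94 ± 0.20 (edgeR adjusted p = 0.145). Parp14 (chr16:35832874-35871544, minus strand), an ADP-ribosyltransferase induced by interferon, had 9.43, 12.7 and 11 CPM in controls and 23.4, 21.6 and 20.5 CPM in knockouts. No library of one group reached the other (log2 0.94 ± 0.17, edgeR adjusted p = 0.107). Parp9 and Dtx3l, which form a complex and lie near Parp14 on chromosome 16, overlapped between the groups: Parp9 had 27.8, 35.1 and 32.3 CPM in controls and 38.7, 34.2 and 41.2 CPM in knockouts. Stat2, the partner of IRF9, had 28.0, 32.1 and 31.2 CPM in controls and 35.5, 28.5 and 35.7 CPM in knockouts, a log2 difference of 0.07 ± 0.14. Irf9 had 6.75 to 11.7 CPM in controls and 11.5 to 15.3 CPM in knockouts and overlapped narrowly, and Irf7, the amplifier of type I interferon, stayed at or below 1.34 CPM in every library.

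Among the 14 effectors, 8 had every knockout library above every control library over all nuclei. Of all genes tested, 10.7% had that order and 5.52% the opposite. Mx1, 1 of the 8, had too few counts to be tested (0.129 to 0.431 CPM in controls and 0.576 to 0.802 CPM in knockouts). In control 2, where 3 UMIs amount to 0.387 CPM, Mx1 was below that level and Ifit1 at it. The tested ones were Gbp2, Gbp3 and Gbp7, guanylate-binding GTPases, Ifit1 and Ifit2, which bind foreign RNA, Oas2, which makes an activator of RNase L, and Rnf213, a large ubiquitin ligase. Gbp7 had 13.2, 13.2 and 6.30 CPM in controls and 22.5, 14.8 and 20.0 CPM in knockouts, with control 3 well below the other 2 controls. Rnf213 had 68.4, 58.9 and 98.3 CPM in controls and 101, 118 and 99.5 CPM in knockouts, so control 3 almost reached the lowest knockout (log2 0.44 ± 0.21, edgeR adjusted p = 0.563). Ifit2 had 3.93, 2.07 and 3.36 CPM in controls and 4.88, 5.99 and 7.04 CPM in knockouts. Gbp3 had 1.11, 1.16 and 0.862 CPM in controls and 3.33, 3.11 and 1.43 CPM in knockouts, and Gbp2 between 0.604 and 1.23 CPM in controls and between 1.78 and 2.77 CPM in knockouts. Knockout 3 was the closest to the controls for Gbp3 and knockout 1 for Gbp2.

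The groups of the other effectors overlapped. Rsad2, the antiviral enzyme viperin, had 11.3, 13 and 13.5 CPM in controls and 12.5, 7.61 and 11.5 CPM in knockouts, overlapping, with a log2 difference of -0.31 ± 0.23. Ifi44 had 5.00, 6.58 and 4.31 CPM in controls and 4.72, 3.11 and 6.77 CPM in knockouts. Ifit3, Isg15 and Oas1a were each at or below 1.17 CPM in every library, where 3 UMIs amount to 0.0617 to 0.387 CPM. Oas1a in knockout 2 was at 0 UMIs, which allows up to 0.346 CPM. Trim30a, a ubiquitin ligase that restrains NF-kB signalling, had 5.64, 19.0 and 16.1 CPM in controls and 7.83, 12.1 and 68.7 CPM in knockouts, so knockout 3 alone was high. Its log2 difference was 1.07 ± 0.82 (edgeR adjusted p = 0.754) and -0.43 (edgeR adjusted p = 0.913) without knockout 3. Knockout 3 had the highest Trim30a level in 11 of the 11 classes fitted, from 49.0 to 160 CPM, with injured tubule compared without control 2. Trim30a, the GBP, IFIT and OAS families and the H2 genes have near copies in the mouse genome, so reads could have been divided among them, and these values are less certain than those of Nlrc5, Parp14 or Irf1.

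Class I presentation split into 2 patterns. Tap2 (chr17:34203527-34216321, plus strand) had 10.8, 9.68 and 10.3 CPM in controls and 17.4, 14.4 and 16.4 CPM in knockouts (log2 0.58 ± 0.18, edgeR adjusted p = 0.308). Tap1 had 2.47, 2.32 and 2.67 CPM in controls and 5.19, 3.11 and 5.17 CPM in knockouts. For both transporter subunits the controls were tightly grouped and all knockouts lay above them. B2m, the invariant chain of class I, had 62.7, 23 and 27.4 CPM in controls and 47.4, 25.1 and 20.5 CPM in knockouts. H2-K1 had 56.3, 26.6 and 29.5 CPM in controls and 65.3, 36.4 and 34.7 CPM in knockouts, and H2-D1 112, 22.7 and 48.2 CPM in controls and 98.0, 52.7 and 41.2 CPM in knockouts. For these 3 chains the groups overlapped and both libraries numbered 1 were the highest. Psmb9 had 1.68 to 2.55 CPM in controls and 1.84 to 2.32 CPM in knockouts, with the groups interleaved.

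The class II genes Cd74, H2-Aa and H2-Ab1 were also highest in the libraries numbered 1. Cd74 had 33.8, 6.84 and 16.7 CPM in controls and 58.0, 16.3 and 11 CPM in knockouts, and H2-Ab1 had 11, 2.32 and 4.48 CPM in controls and 21.7, 6.92 and 4.63 CPM in knockouts. H2-Eb1 differed from them, with 0.597, 2.19 and 0.604 CPM in controls and 3.11, 2.54 and 1.60 CPM in knockouts, overlapping through control 2. Both libraries numbered 1 lay above the other 4 for 8 of the 32 members tested (Psmb8, Tapbp, B2m, H2-K1, H2-D1, H2-Aa, H2-Ab1 and Cd74) and for 15.5% of all genes tested. These are the libraries with the highest mitochondrial share, and the part of that share in the levels was not tested.

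**Figure D2:**
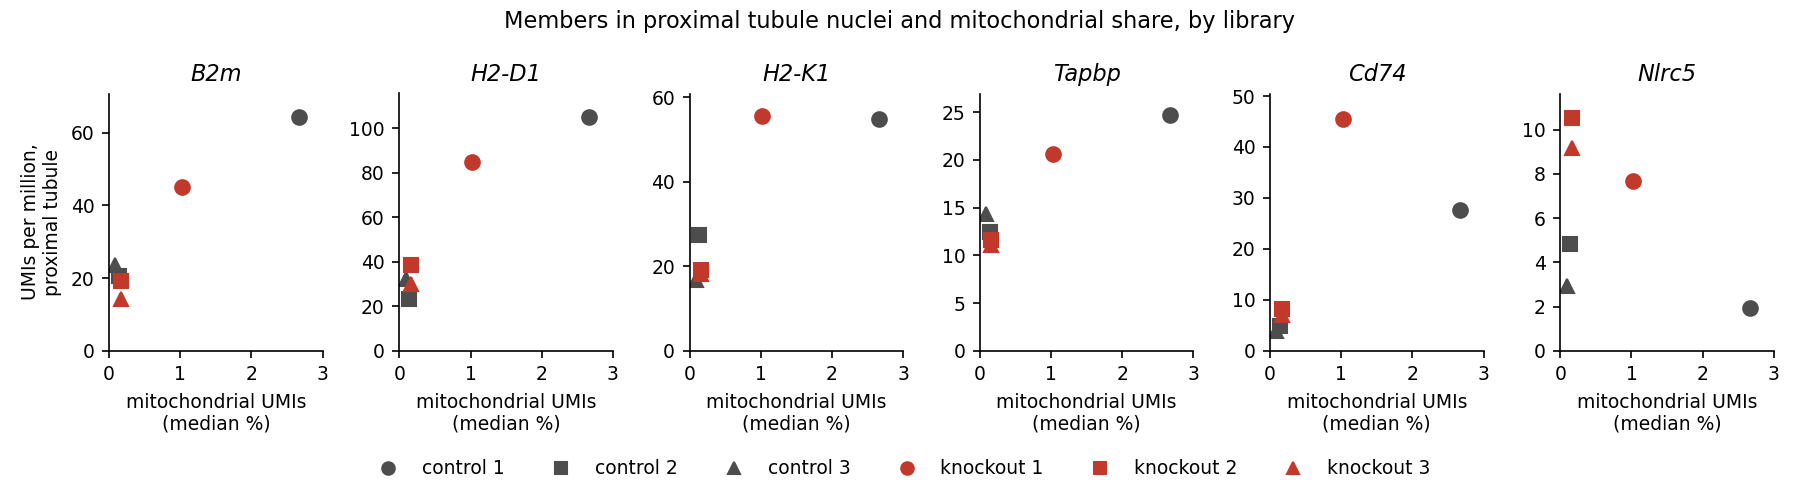
Level of 6 members in proximal tubule nuclei, in CPM of the class, against the median mitochondrial share of the library in percent, 1 point per library. Control 1 (2.67%) and knockout 1 (1.02%) lie above the 4 other libraries for B2m, H2-D1, H2-K1, Tapbp and Cd74, and Nlrc5 separates the groups instead.

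**Figure D3:**
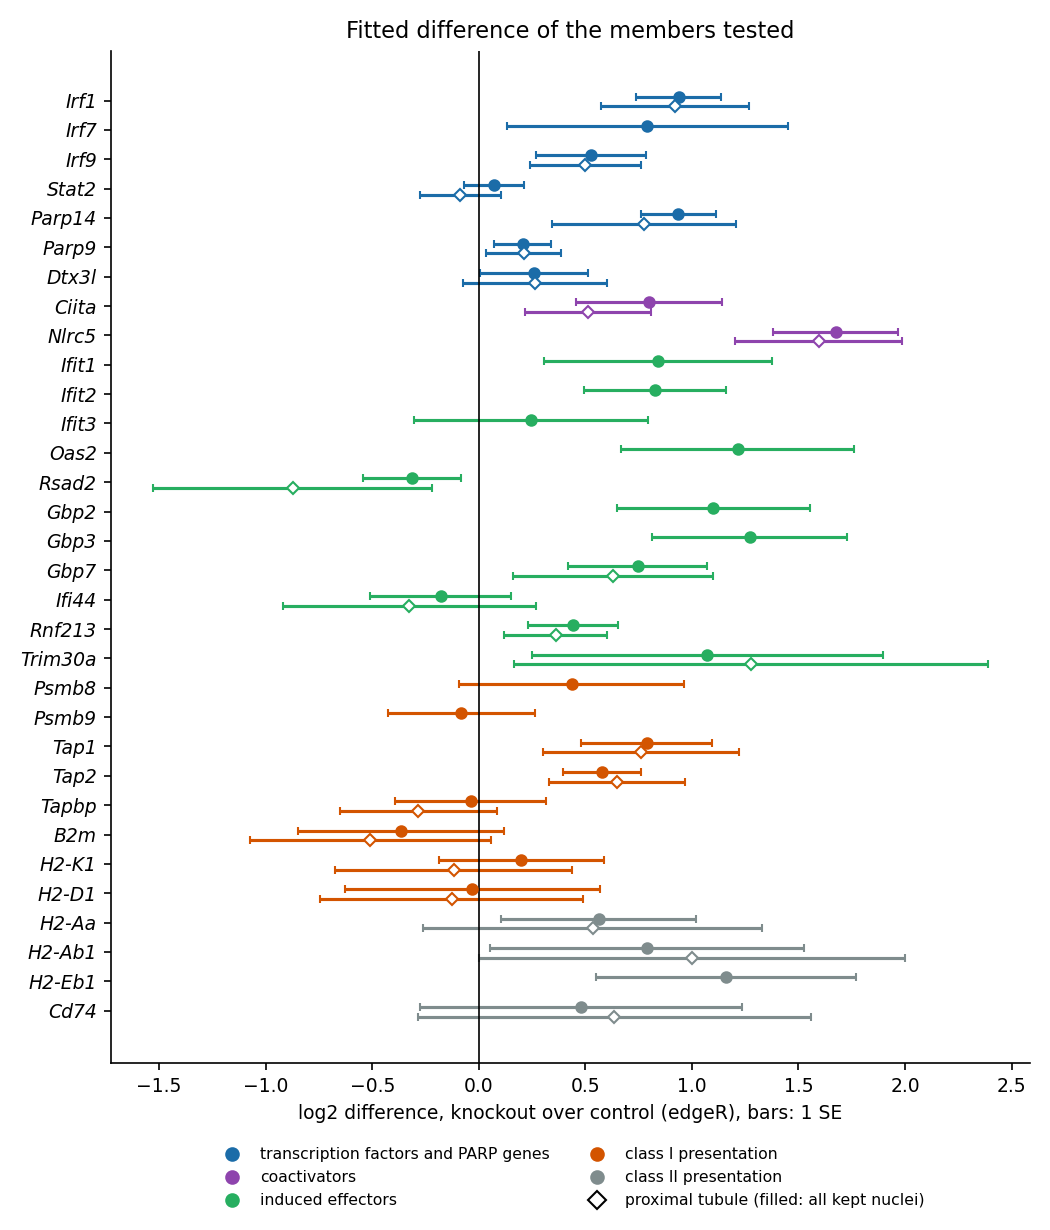
Fitted log2 difference, knockout over control, of each member tested, with bars of 1 SE from edgeR and colours for the 5 roles, for all kept nuclei (filled circles) and proximal tubule nuclei (open diamonds, where tested). Nlrc5 lies at 1.67 over all nuclei and 1.60 in proximal tubule, and B2m, H2-D1, Rsad2 and Ifi44 lie below 0 over all nuclei.

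A sum over all nuclei mixes the level in a class with the share of that class, and fewer nuclei of a class cannot be told apart there from less RNA per nucleus. Injured tubule nuclei, named from markers such as Havcr1, Vcam1 and Cd44, were 0.604%, 0.134% and 0.455% of kept nuclei in controls and 11.3%, 10.5% and 6.15% in knockouts. The groups did not overlap, and the difference was 8.92 percentage points (0.398 ± 0.240 against 9.32 ± 2.77, SD, n = 3 and 3). The two-sided exact permutation p was 0.1, the smallest this design allows. These nuclei held 9.62% of knockout UMIs, and 31.5% of the knockout UMIs of Nlrc5, 28.0% of those of Parp14, 25.8% of Irf1, 29.2% of Ciita, 28.9% of Tap2 and 42.3% of Gbp3. In controls they held 0.400% of UMIs and 1.11% of those of Nlrc5.

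With injured tubule, cycling and immune nuclei left out, Nlrc5 had 3.16, 5.86 and 5.53 CPM in controls and 11.1, 12.5 and 11.1 CPM in knockouts. The groups still did not overlap, at a log2 difference of 1.24 ± 0.27 (edgeR adjusted p = 0.343). Parp14 had 9.38, 12.2 and 10.7 CPM in controls and 18.2, 14.7 and 17.2 CPM in knockouts, also without overlap (log2 0.59 ± 0.18, edgeR adjusted p = 0.488). Over the 28 members tested this way the median log2 difference was 0.34, with 22 of 28 above 0. The shares over all genes are not given for this fit, so these counts and the lack of overlap are descriptions only. The difference of Tap2 was 0.27 ± 0.19 and that of Ciita 0.34 ± 0.30 on the log2 scale. Injured tubule markers were still found in proximal tubule nuclei, which stayed in these sums, at levels given below.

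Proximal tubule nuclei, the segment that reabsorbs most of the filtrate, are the largest class. In them edgeR called 0 of the 22 members tested (0.038% of 13159 genes). Of the 22, 2 had an unadjusted p under 0.05, beside 7.22% of genes, and DESeq2 called 0. All knockout libraries lay above all controls for 6 of the 22 (Nlrc5, Irf1, Irf9, Ciita, Tap1 and Tap2) and for 7.31% of genes; the opposite held for 0 members and 5.77% of genes. The median member difference was 0.51 on the log2 scale against -0.01 over genes, with 15 of 22 above 0.

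In this class Nlrc5 had 1.92, 4.82 and 2.94 CPM in controls and 7.69, 10.5 and 9.18 CPM in knockouts, a 3.02-fold difference with no overlap (log2 1.60 ± 0.39, edgeR adjusted p = 0.442). Irf1 had 2.97, 5.22 and 2.80 CPM in controls and 6.82, 7.30 and 5.89 CPM in knockouts (log2 0.92 ± 0.35, edgeR adjusted p = 0.643). Control 2 was the highest control for both genes and stayed below every knockout. Parp14 overlapped here, with 3.69, 8.44 and 3.22 CPM in controls and 10.8, 5.68 and 8.00 CPM in knockouts. H2-D1 had 105, 23.3 and 32.1 CPM in controls and 84.8, 38.7 and 29.9 CPM in knockouts, again high in both libraries numbered 1. Different clusters held most of the class in different libraries. In controls 1 to 3 the fullest were led by Gm13936 and Glt1d1 (33.4% of the class), Uqcr10 and Kap (30.1%) and Gm44511 and Hmcn1 (51.0%). In knockouts 1 and 2 it was a cluster led by Bbox1 and Gm609 (26.9% and 23.7%), and in knockout 3 one led by Gm16004 and Keg1 (51.1%). Their part in these differences was not tested. The summed level of 11 injured tubule markers in proximal tubule nuclei was 406, 320 and 649 CPM in controls and 699, 782 and 1099 CPM in knockouts. Endothelial and immune nuclei had the same order of groups, also without overlap. The part of injured tubule RNA or nuclei in the levels of these classes was not tested.

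Within the knockout libraries, nearly all members were higher in injured tubule than in proximal tubule nuclei. Of the 28 members with at least 30 UMIs in the 2 classes together, 26 were higher in injured tubule in all 3 libraries, as were 29.5% of all 14693 genes with that depth. The median of the mean ratios was 4.99. The classes were made by clustering these nuclei without the listed genes, so the comparison is given as a description with no test. In controls, 4 of 26 members were higher in all 3 libraries, where injured tubule nuclei numbered 101, 5 and 23.

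**Figure D4:**
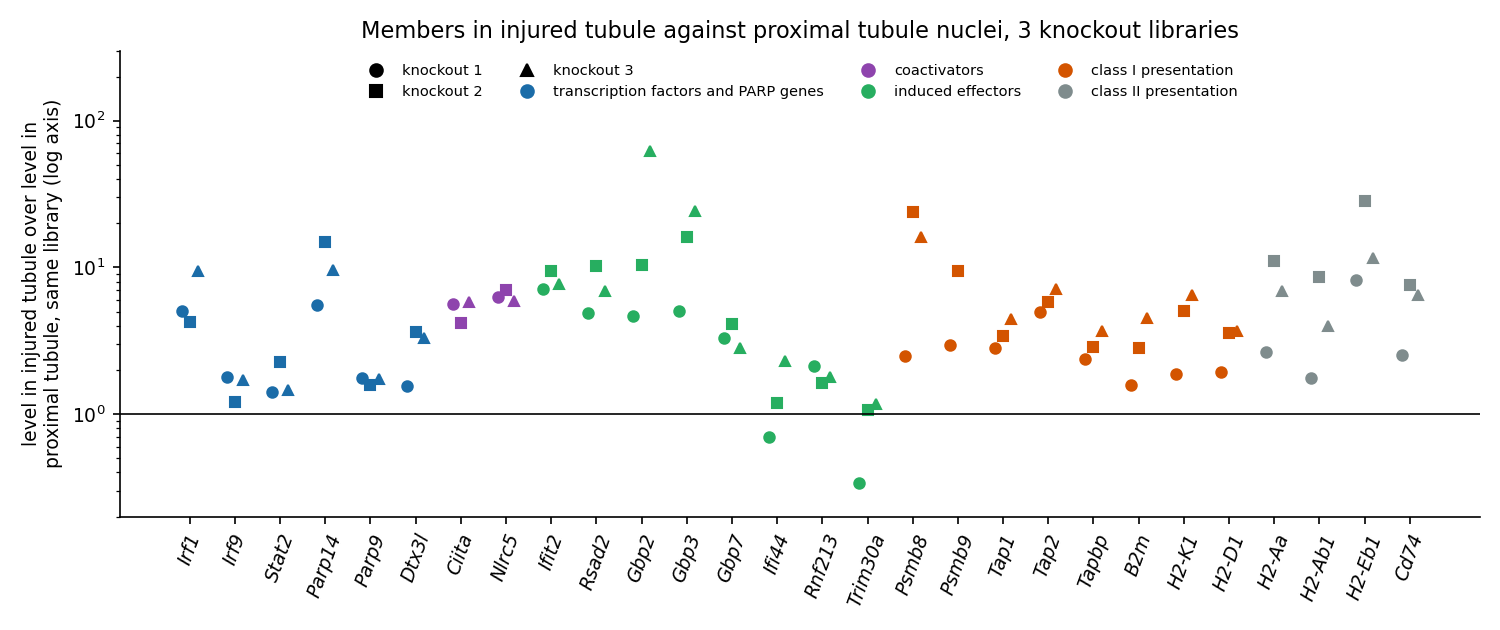
Ratio of the level in injured tubule to the level in proximal tubule nuclei of the same library, on a log axis, for 28 members in the 3 knockout libraries (marker shape) by role (colour), with a line at 1; a ratio over a proximal tubule level of 0 is not drawn. All points lie above 1 except those of Ifi44 and Trim30a in knockout 1.

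The ratios of Nlrc5 were 6.33, 7.06 and 5.86 in knockouts 1, 2 and 3, close to each other. Those of Parp14 were 5.58, 14.9 and 9.58, those of Irf1 5.07, 4.22 and 9.43, and those of Ciita 5.63, 4.16 and 5.78. All 4 regulators were thus at least 4.16 times higher in injured tubule nuclei in every knockout library. Class II genes were higher too: the ratios were 8.26, 28.5 and 11.6 for H2-Eb1 and 2.52, 7.60 and 6.47 for Cd74. For H2-K1 they were 1.89, 5.02 and 6.48, lowest in knockout 1, whose proximal tubule level was the highest of the 3. The exceptions were Ifi44, with 0.693, 1.19 and 2.31, and Trim30a, with 0.337, 1.07 and 1.17. The summed level of 18 immune markers was 261 to 291 CPM in injured tubule nuclei of the knockouts, 367 to 419 CPM in their proximal tubule nuclei and 2329 to 3186 CPM in their immune nuclei. In injured tubule nuclei 2 of the 18, Cd3e and Cd79a, were at 0. The sum of 5 dendritic cell markers had the opposite order, 45.1, 23.1 and 37.5 CPM in injured tubule (Xcr1 at 0) and 9.98, 8.38 and 7.06 CPM in proximal tubule nuclei of knockouts 1 to 3, against 159, 116 and 77.7 CPM in their immune nuclei. Dendritic cells carry class II, and their part in the class II values of injured tubule nuclei was not tested.

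The knockout injured tubule nuclei formed 2 clusters. The values that follow are sums over the 3 knockout libraries with exact Poisson 95% intervals, which cover counting error only. Nlrc5 was 41.1 CPM (33.7 to 49.6) in the cluster led by C3 and Vcam1 and 64.4 CPM (55.2 to 74.6) in the cluster led by Cd44 and Havcr1, and the second exceeded the first in each of the 3 libraries. Ciita had the opposite order, 48.7 CPM (40.6 to 57.9) and 27.6 CPM (21.8 to 34.6), reversed in knockout 2. Cd74 was 96.2 CPM (84.7 to 109) and 102 CPM (90.6 to 115), with intervals that overlap.

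Control and knockout injured tubule nuclei could be compared only at low depth. Control 2 had 5 such nuclei, fewer than the 10 required, and was left out; controls 1 and 3 had 101 and 23 nuclei with 206024 and 60272 UMIs. EdgeR called 0 of the 21 members tested with 2 controls against 3 knockouts (0.144% of 8353 genes). Unadjusted p was under 0.05 for 5 of the 21, all higher in the knockout, and for 13.1% of genes, and DESeq2 called 0. All 3 knockouts lay above both controls for 11 of the 21 members and for 20.8% of genes, and below for Stat2 alone and for 14.9% of genes. The median member difference was 0.81 on the log2 scale against 0.07 over genes, with 17 of 21 above 0. The groups also differed in cluster make-up. With the listed genes kept in the clustering, the cluster led by Cd44 and Havcr1 held 5, 1 and 2 control and 749, 91 and 85 knockout nuclei. The cluster with C3 and Vcam1 among its leading genes held 99, 4 and 17 control and 1197, 352 and 222 knockout nuclei. The part of this make-up in the differences was not tested.

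Nlrc5 in injured tubule nuclei had 9.71 and 16.6 CPM in controls 1 and 3 and 48.6, 74.5 and 53.8 CPM in the knockouts (log2 2.33 ± 0.62, edgeR adjusted p = 0.195). The control values rest on 3 UMIs, against 285 in the knockouts. Parp14 had 19.4 and 16.6 CPM in the controls and 60.2, 84.8 and 76.7 CPM in the knockouts (log2 1.94 ± 0.50, edgeR adjusted p = 0.187). These 2 members passed the threshold with doublets kept (edgeR adjusted p = 0.0166 for Nlrc5 and 0.0185 for Parp14) and with no filter on low counts (edgeR adjusted p = 0.0359 and 0.0360). For these alternative fits the shares of all genes called are not given. With the listed genes kept in the clustering, the difference of Parp14 was 1.20 on the log2 scale (edgeR adjusted p = 0.169), and without control 1 the adjusted p by edgeR was 0.571 for Parp14 and 0.601 for Nlrc5. Rnf213 had 77.7 and 133 CPM in the controls and 181, 176 and 175 CPM in the knockouts, with a narrow spread among knockouts. H2-D1 had 214 and 49.8 CPM in the controls and 164, 137 and 111 CPM in the knockouts, with the groups overlapping. No UMI was found in these control nuclei for 13 members, where a count of 0 allows up to 11.3 CPM over both controls. In the summed knockouts Gbp3 had 12.8 CPM and H2-Eb1 12.3 CPM, above that limit and below the exact Poisson upper bound for 0 UMIs at 95%, 13.9 CPM, so a difference was not detectable at this depth.

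Whether the knockout difference was itself unequal in injured and proximal tubule was tested with the library as block. EdgeR called 0 of 27 members (0.515% of 13796 genes), and DESeq2 called 0. An unadjusted p under 0.05 was found for 4 of 27, beside 8.30% of all genes. Of the 27, 23 were above 0, beside 62.8% of genes. The smallest p belonged to Rnf213 (log2 0.78 ± 0.31, edgeR adjusted p = 0.440) and Tapbp, the class I loading factor (log2 1.35 ± 0.55, edgeR adjusted p = 0.451). The value of Tapbp was 0.48 without control 1, 0.76 without both libraries numbered 1 and 0.73 with doublets kept. The median over members was 0.77 against 0.22 over all genes, and the median over genes was 0.07 with DESeq2's size factors and 0.05 with library size alone.

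Endothelial nuclei had high levels of several members in both groups. Of 27 members with at least 30 UMIs, 21 were higher in endothelial than in proximal tubule nuclei of all 3 knockout libraries, against 20.8% of genes; in controls it was 20 of 27. Rsad2 had 86.6, 102 and 213 CPM in controls and 82.6, 85.2 and 222 CPM in knockouts, with both libraries numbered 3 high. Ifi44 had 47.5, 102 and 45.8 CPM in controls and 35.1, 37.9 and 111 CPM in knockouts, and no group stood above the other. The knockout ratios over proximal tubule were 19.3, 52.5 and 236 for Rsad2 and 16.2, 35.0 and 78.7 for Ifi44.

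Between the groups, no difference in endothelial nuclei passed the threshold. EdgeR called 0 of 10 tested (0 of 4112 genes, 0%), 0 of 10 had an unadjusted p under 0.05 beside 2.5% of genes, and DESeq2 called 0. In 0 of the 10 were the groups apart in either direction, as against 5.57% of genes higher and 2.82% lower. Parp14 had 56.0, 81.8 and 121 CPM in controls and 86.7, 123 and 160 CPM in knockouts (log2 0.45 ± 0.36, edgeR adjusted p = 0.998). In each numbered pair the knockout was above the control, while the groups overlapped. Rnf213 had 91.7, 95.5 and 138 CPM in controls and 136, 114 and 181 CPM in knockouts (log2 0.37 ± 0.29, edgeR adjusted p = 0.998). Nlrc5 had 22.1, 40.9 and 41.7 CPM in controls and 39.2, 47.3 and 48.6 CPM in knockouts and was too low in count for its own test here. In the test of unequal differences against proximal tubule its value was -1.20 ± 0.60 on the log2 scale (edgeR adjusted p = 1). There 0 of 29 members and 0% of 12252 genes were called. An unadjusted p under 0.05 was found for 0 of 29, beside 1.90% of genes, and DESeq2 called 0.

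Immune nuclei numbered 74, 17 and 49 in controls and 246, 42 and 44 in knockouts. Their share was 0.442%, 0.454% and 0.970% in controls and 1.35%, 0.858% and 0.762% in knockouts, overlapping, with a difference of 0.368 percentage points (two-sided exact permutation p = 0.3). Class II genes and Ciita had higher levels in them than in proximal tubule nuclei of the knockouts. The ratio was 25.5, 10.7 and 16 for Ciita, 11.8, 42.9 and 20.0 for H2-Aa and 6.95, 12.9 and 11 for Cd74. Immune nuclei did not hold most of this RNA: knockout UMIs of Cd74 were 162 in immune and 534 in injured tubule nuclei. A cluster led by Wdfy4, Btla and Clec9a, the last a dendritic cell receptor, had 458 CPM of Ciita in the summed knockouts (exact Poisson 95% interval 283 to 700).

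Between the groups, edgeR called 0 of the 4 members with enough counts in immune nuclei (0.126% of 2375 genes). Of these 4, 0 had an unadjusted p under 0.05, beside 6.19% of genes, and DESeq2 called 0. In 0 of the 4 were the groups apart, as against 7.54% of genes higher and 4.76% lower. Cd74 had 302, 58.2 and 443 CPM in controls and 317, 104 and 77.7 CPM in knockouts (log2 -0.65 ± 0.52, edgeR adjusted p = 0.846). That value was -1.84 without knockout 1, -0.30 without control 3, -0.43 without knockout 2 and -0.40 without knockout 3. Control 2, with 2 UMIs, and knockouts 2 and 3, with 9 and 6, were the low libraries. Nlrc5 was below the count needed for a test; its UMIs were 1, 1 and 4 in controls (5.30, 29.1 and 33.4 CPM) and 26, 7 and 5 in knockouts (56.0, 81.1 and 64.8 CPM). Ciita had 47.7, 0 and 159 CPM in controls and 185, 69.5 and 90.7 CPM in knockouts, with the groups overlapping. Summed markers of macrophages were 291 to 460 CPM in control and 414 to 457 CPM in knockout immune nuclei, and those of B cells 146 to 430 CPM and 104 to 220 CPM. Neither sum is particular to immune nuclei. The macrophage sum was 1036 to 2585 CPM in podocytes, and the B cell sum 872 to 2138 CPM in endothelial nuclei. The part of these cell types in the immune values was not tested.

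The difference of Cd74 between genotypes was compared between immune and proximal tubule nuclei in 1 fit. The value was -1.63 ± 0.39 on the log2 scale (edgeR adjusted p = 0.0745), that is, lower in knockout immune nuclei relative to proximal tubule, and the threshold was not passed. Of 26 members edgeR called 0 (0.0172% of 11656 genes), 1 of 26 had an unadjusted p under 0.05, beside 2.92% of genes, and DESeq2 called 0. It was called without control 1 (log2 -3.11, edgeR adjusted p = 1.14e-06), without control 2 (log2 -1.70, edgeR adjusted p = 0.0331) and with library size alone (log2 -1.63, edgeR adjusted p = 0.0374). Over 13 alternatives it ranged from -3.11 to -0.42, and the shares of all genes called in those fits are not given. Cd74 is also among the members that followed the library number. In podocytes it had 36.1, 14.4 and 0 CPM in controls and 55.0, 0 and 0 CPM in knockouts. In proximal tubule it had 27.7, 4.82 and 3.92 CPM in controls and 45.6, 8.11 and 7.06 CPM in knockouts.

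**Figure D5:**
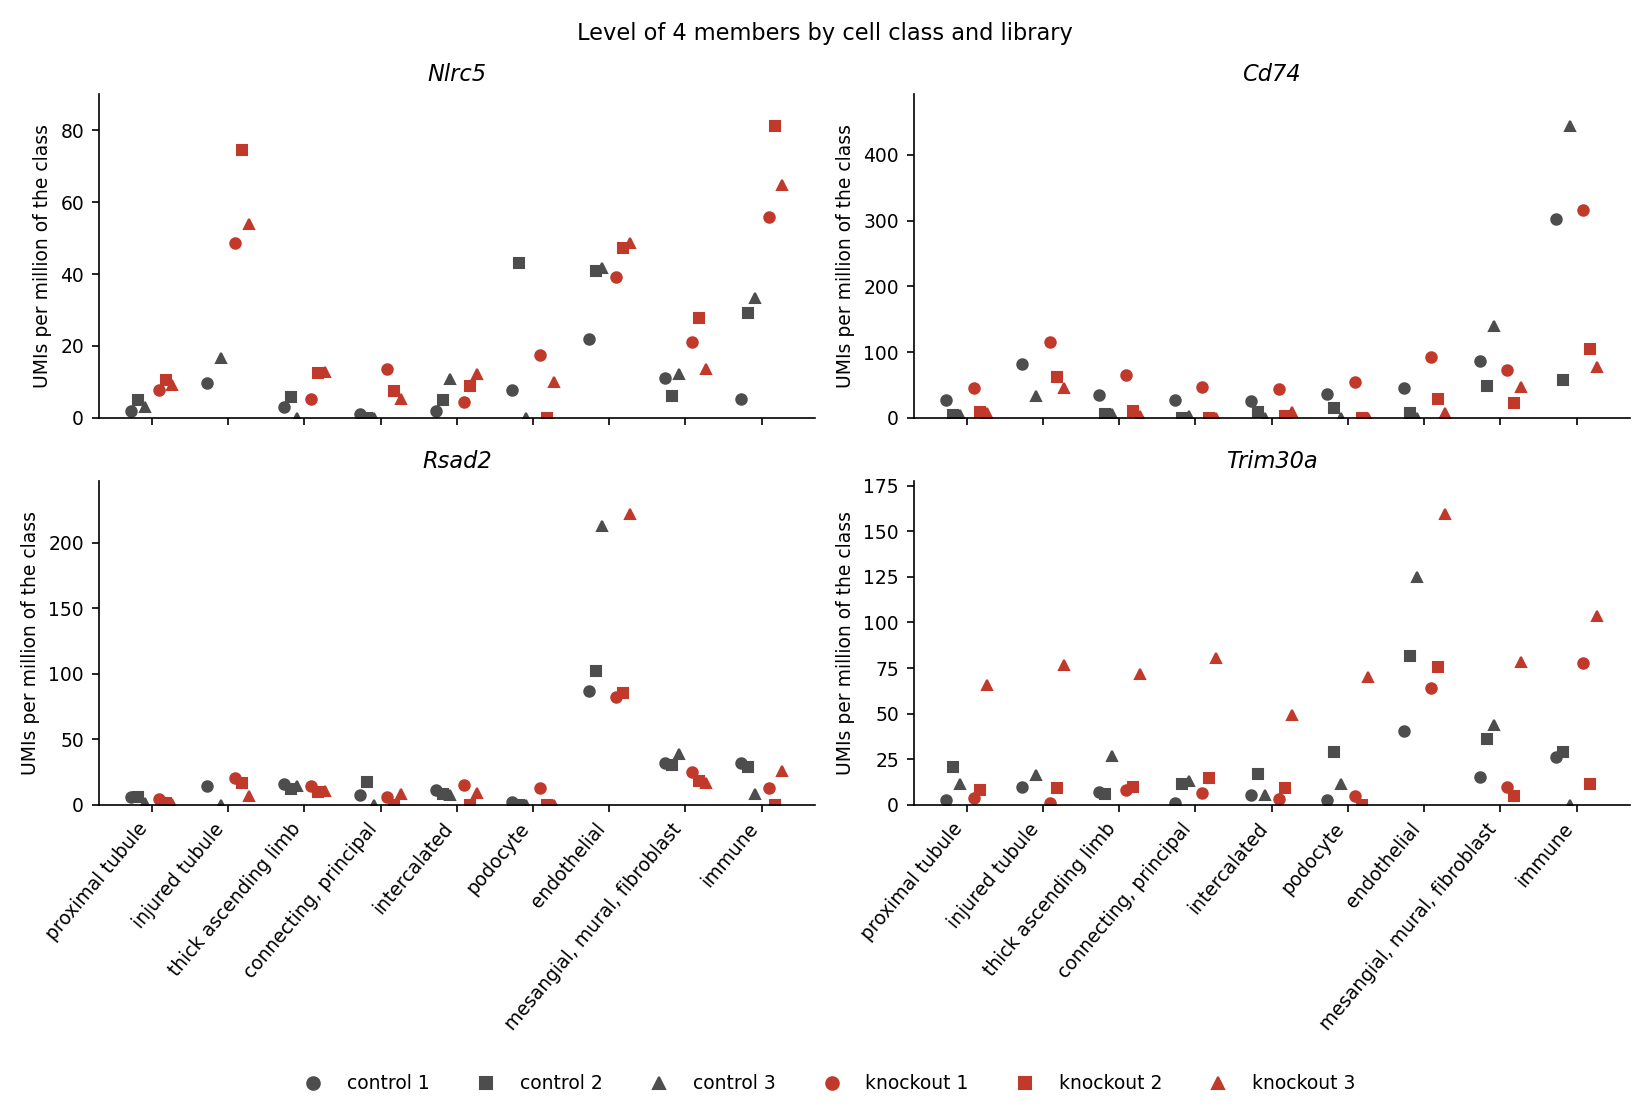
Level of Nlrc5, Cd74, Rsad2 and Trim30a in 9 cell classes, in CPM of the class on linear axes, 1 point per library (control grey, knockout red; control 2 is left out of injured tubule). In the knockouts Nlrc5 lies between 48.6 and 74.5 in injured tubule, Cd74 reaches 443 in immune nuclei of control 3, Rsad2 reaches 222 in endothelial nuclei of knockout 3, and knockout 3 is highest for Trim30a in every class drawn.

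In the other nephron classes the counts of members were low. EdgeR called 0 of 9 members tested in thick ascending limb (0.0126% of genes), 0 of 3 in distal convoluted tubule (0%), 0 of 3 in connecting tubule and principal nuclei (0%), 0 of 7 in intercalated nuclei (0.0131%) and 0 of 11 in mesangial, mural and fibroblast nuclei (0.128%). In all 5 classes 0 members had an unadjusted p under 0.05, beside 4.24% to 8.32% of genes, and DESeq2 called 0. Rnf213 was higher in every knockout than in every control in 4 of these 5 classes. In intercalated nuclei, which secrete acid or base, it had 60.5, 53.9 and 74.8 CPM in controls and 84.4, 89.9 and 91.9 CPM in knockouts (log2 0.45 ± 0.22, edgeR adjusted p = 0.752). The background for that order was 5.64%, 6.17%, 6.69% and 7.33% of genes in thick ascending limb, distal convoluted tubule, connecting tubule with principal nuclei, and intercalated nuclei. The opposite order held for 4.51%, 3.49%, 4.5% and 5.18% of genes there and for 0 members. In mesangial, mural and fibroblast nuclei Rsad2 was apart the other way, with 32.2, 30.1 and 39.1 CPM in controls and 25.0, 18.5 and 17.0 CPM in knockouts, as were 5.69% of genes, while 0 members and 7.7% of genes lay the other way (log2 -0.69 ± 0.36, edgeR adjusted p = 0.672). Cd74 in that class had 86.6, 48.2 and 139 CPM in controls and 72.0, 23.1 and 47.5 CPM in knockouts.

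Podocytes, the cells in which Cre is active, gave no member enough counts for a test, and 0.212% of the 1888 genes tested there were called. H2-K1 had 51.6, 28.8 and 11.6 CPM in control podocytes and 90.1, 48.8 and 50.1 CPM in knockout podocytes, with the groups overlapping. Nlrc5 had 7.74, 43.2 and 0 CPM in controls and 17.5, 0 and 10.0 CPM in knockouts, so each group had a library at 0. Parietal epithelial nuclei likewise gave no member enough counts, and 0.692% of 867 genes were called. Nlrc5 was higher in the knockout mean than in the control mean in 10 of 11 classes, podocytes being the exception, and without overlap in 6. Of these 6, parietal epithelial nuclei had 0 control UMIs and 2, 1 and 1 in the knockouts, and immune nuclei had 6 control UMIs. Trim30a and H2-Ab1 were also higher in 10 of 11, without overlap in 0. All classes come from the same 6 libraries, and no share over all genes is given for these counts. With injured tubule taken without control 2, B2m was higher in the knockout mean in 1 of 11 classes and H2-D1 in 2 of 11.

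For the rest of the pathways, 4 wider lists were read from the same fits: 16 interferon ligands, receptors and kinases, 12 sensors of foreign nucleic acid, 50 further induced genes, of which 48 were found, and 28 further presentation genes. Over all nuclei edgeR called 0 of 13, 0 of 8, 0 of 37 and 0 of 23 tested. An unadjusted p under 0.05 was found for 1, 2, 5 and 0 of them, beside 9.89% of all genes. DESeq2 called 1, 0, 3 (Cxcl10, Gbp5 and Parp10) and 0, and 492 of all 16130 genes. A log2 difference above 0 was found for 7, 8, 23 and 15, beside 46.7% of genes. Their medians were 0.04, 0.17, 0.15 and 0.17 on the log2 scale, against -0.03 over all genes and 0.57 for the 32 tested members. Over 224 pairs of a gene of these lists and a class it was tested in, edgeR called 0, 11 had an unadjusted p under 0.05, and DESeq2 called 0. In the fits across classes 1 gene, Herc6, was called for an unequal difference between injured and proximal tubule.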

How the data were processed

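Single-nucleus RNA libraries of 3 control and 3 knockout kidney cortices were used. The values the authors deposited are whole UMI counts for each gene in each barcode, not normalized. Per the file headers, Cell Ranger 3.1.0 wrote them. The submitters' processing notes name build mm10 and Seurat, and further steps are not given in the sources used here. Whether reads from introns were counted is not given either.

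Barcodes were kept from 300 genes upward and up to 5% mitochondrial UMIs. Scrublet's automatic threshold marked at most 6 barcodes per library, so barcodes with the highest doublet scores were removed instead at 0.8% per 1000 barcodes (104 to 3831 per library). Nuclei were clustered in 3 steps with scanpy 1.11.5 on 3000 variable genes, leaving out the members and the wider lists, and clusters were named from marker lists by thresholds set after the clusters had been seen. Clusters of mixed or weak markers stayed unnamed. The members and lists were chosen with earlier results of these data known.

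Results for 1 further gene are not reported here. Counts were summed per library and class and given as CPM of that class. The main test was edgeR 4.0.16 (quasi-likelihood, TMM scaling, filterByExpr) in R 4.3.3, with Benjamini-Hochberg adjustment over all genes of a fit and a threshold of 0.05; DESeq2 1.42.0 was the alternative. Differences of the knockout effect between classes were fitted with the library as block. The design required 10 nuclei in every library; injured tubule was fitted without control 2, which had 5. All 36 members could be named, with the tested members of smallest p in each fit and, from the wider lists, those past the threshold. The scripts were tested on simulated data. The alternatives were DESeq2, library size alone, no low-count filter, each library left out, both libraries numbered 1 left out, doublets kept, clustering with the listed genes, and the replicate block. Leaving out shared barcodes and keeping control 2 in injured tubule were added after the data were seen.

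Controls and knockouts share numbers 1 to 3 in the labels. Deviations from the group means correlated at 0.659, 0.370 and 0.382 in same-numbered pairs, over the limit of 0.1 set for every pair. By that rule the numbers were taken as pairs in the block fit, and no litter or day is named in the labels. Unlike-numbered pairs passed the limit too: control 2 with knockout 3 (0.328) and control 3 with knockout 2 (0.422). Control 3 correlated more with knockout 2 than with knockout 3. The values set the libraries numbered 1 apart from the others. They do not show that number 2 pairs with 2 or number 3 with 3.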

Additional observations from a re-analysis of the deposited data

Results flagged for a closer look

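Herc6, an interferon-induced ubiquitin and ISG15 ligase from the wider lists, was the 1 gene of the members and these lists whose knockout difference was called unequal between injured and proximal tubule nuclei by edgeR's quasi-likelihood test (log2 3.81 ± 0.98, SE, 2 controls and 3 knockouts; adjusted p = 0.0368). In injured tubule nuclei it had 4.85 and 0 CPM in controls 1 and 3, from 1 UMI, and 30.6, 37.2 and 34.3 CPM in the knockouts, from 122, 29 and 21 UMIs. In proximal tubule nuclei it had 16.2, 28.5 and 15.7 CPM in controls and 14.2, 10.8 and 5.65 CPM in knockouts. The call was lost with DESeq2 (log2 3.8, adjusted p = 1.00), with library size alone (edgeR adjusted p = 0.0617) and with the listed genes kept in the clustering (log2 0.89, edgeR adjusted p = 0.562). It was also lost without control 3 (log2 3.41, edgeR adjusted p = 0.158), knockout 2 (3.69, adjusted p = 0.150) or knockout 3 (3.57, adjusted p = 0.109), with the fold little changed. Without control 1 the remaining control had 0 UMIs, and the fit gave no usable fold. The call held without knockout 1 (edgeR adjusted p = 0.00640). The cause was not tested.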

How the results depend on the processing

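Over all kept nuclei, 0 members were called by the reported fit. DESeq2 called 3 (Nlrc5, log2 1.69, adjusted p = 9.05e-05, Parp14, log2 0.95, adjusted p = 0.000741, and Irf1, log2 0.95, adjusted p = 0.00521) and 492 of 16130 genes in that fit. With the replicate block, which pairs libraries by number alone, 1 was called (Nlrc5, log2 1.70, edgeR adjusted p = 0.0365). Without both libraries numbered 1, 1 was called (Nlrc5), and with any 1 library left out 0 were called. The block changed no other call of a member. Over 15 alternatives the log2 difference was 1.24 to 1.83 for Nlrc5, 0.59 to 1.01 for Parp14 and 0.71 to 1.00 for Irf1. In injured tubule, 2 members were called with no filter on low counts and 2 with doublets kept, both times Nlrc5 and Parp14. The difference between injured and proximal tubule was called for 0 to 1 members when 1 library was left out (H2-K1, log2 1.71, edgeR adjusted p = 0.00365, without knockout 1). That between immune and proximal tubule was called for 1 member with library size alone and for 0 to 1 when 1 library was left out, each time Cd74. The shares of all genes called are not given for the alternative edgeR fits, so calls of members there are descriptions only. The direction reversed for Stat2 in distal convoluted tubule without knockout 3 (log2 -0.032; -0.032 to 0.81 with 1 library left out), for H2-D1 in connecting tubule and principal nuclei without control 1 (1.30) or knockout 3 (0.024; -1.14 to 1.30), and for H2-Ab1 between immune and proximal tubule without control 3 (0.095) or knockout 1 (0.13; -3.25 to 0.13). The cause was not tested. With 1 library left out, the share difference was 7.94 to 10.5 percentage points for injured tubule and 0.188 to 0.541 for immune nuclei. Depth limits the injured tubule comparison, where 1 member, H2-D1, had at least 30 control UMIs. FVB/N differs from the reference strain at the H2 locus, and its effect on H2 counts was not tested.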
